A study of Saccharomyces cerevisiae with 34 samples.

Results

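The proteasome is the protease of the cell that degrades proteins tagged with ubiquitin. A barrel-shaped 20S core, built from rings of alpha and beta subunits, holds the catalytic sites, and a 19S cap, made of a base with an ATPase ring and a lid, recognises, unfolds and feeds in the substrates. In budding yeast the subunit genes share an activator, Rpn4, which binds a promoter element called PACE and is itself a very short-lived substrate of the proteasome, so that less proteasome activity leaves more Rpn4 and more subunit transcription. The genes described here are the 33 genes of the core and cap subunits and RPN4 (YDL020C), 34 of the 5390 Saccharomyces cerevisiae features in the count table. They were chosen by systematic name from knowledge of the complex, not by a measured value. They comprise 7 alpha ring, 7 beta ring, 6 ATPase, 4 other base and 9 lid genes and the activator, and all 34 were tested in every comparison.

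RNA was sequenced from budding yeast of the BY4741 background, either wild type (WT) or with kin28as or kin28is, alleles of KIN28 that make the TFIIH kinase sensitive to inhibitors. Treatment lasted 1 h and was with DMSO, with 1-NAPP-1, which inhibits reversibly, or with CMK, which inhibits irreversibly. The dose was 2 µM in the set numbered replicate 1 and at 5 µM in every later replicate, DMSO cultures carrying the label of their set. All cultures except 1 were then given 5 mM 4-thiouracil (4tU), a uracil analog that marks newly made RNA, for 6 min, and 4tU-labelled Schizosaccharomyces pombe cells were added at 1 cell to 6 as an external reference. Nascent RNA is the pulled-down labelled RNA, and total RNA was not pulled down. In total RNA there were 2 libraries for each treatment of WT and of kin28is, 1 at each dose. In nascent RNA, WT had 1 library per treatment at each dose, and kin28is at 5 µM had 3 CMK libraries and 2 for each of the other treatments, beside 1 of each at 2 µM. The kin28as strain had 1 library with DMSO and 1 with 1-NAPP-1 per RNA fraction, and a WT DMSO culture of the 5 µM set that received no 4tU gave 1 library per fraction. CMK was not given to kin28as in the samples used here, and each strain is labelled only by its allele, so whether it stands for 1 clone is not given. Libraries held 517887 to 15568445 reads over both species. Whether replicates were grown as separate cultures is not in the labels, and the spread behind each p-value may therefore be technical.

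Some libraries stood apart. The nascent libraries of the 2 µM set had 4.71 to 45.8 S. cerevisiae reads per S. pombe read, and those of the 5 µM set 0.277 to 4.15, so tests between nascent libraries below use the 5 µM set alone, while nascent against total RNA was fitted over both sets. BY4741 is an a-type strain without working HIS3, LEU2, MET17 and URA3. The a-cell genes MFA2, STE2 and BAR1 were read in all 34 libraries. MFA1, another a-cell gene, was at 0 in 1 library, the pull-down without 4tU. The alpha-factor genes stayed at or below 6.14 counts per 1000000 S. cerevisiae reads (CPM). STE3, the a-factor receptor gene of alpha cells, reached 75.6 CPM, in that same pull-down. STE3 moved with results below: in total RNA it had 37.1 and 42.7 CPM in kin28is with CMK against 9.28 and 2.26 with DMSO, and 43.9 CPM without 4tU against 4.56 to 40.7 in labelled WT. MF(ALPHA)1 was at 0 in 15 libraries and at most 3.09 CPM, and the part of STE3-expressing cells or stray reads in the results was not tested. LEU2 reads moved in the same way as STE3 in total RNA, with 11.5 and 30.8 CPM in kin28is with CMK against 2.69 and 1.23 with DMSO. LEU2 had 15.7 CPM without 4tU against 1.71 to 12.2 in labelled WT, and the source of these reads was not tested. HIS3 reads were present in every library, and URA3 stood at 359 CPM in nascent kin28is CMK replicate 2 and 355 CPM in the pull-down without 4tU, against at most 25.2 CPM elsewhere. Counts of calls without CMK replicate 2 are given below, and the pull-down without 4tU is a single library, so values that rest on it are given only with it.

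The promoters of these genes show what they share in sequence. PACE was searched as its core letters GGTGGCAAA, on both strands, in the 300 bases before each start codon of the RefSeq annotation of the R64 assembly (sacCer3). The letters occurred in 27 of 33 subunit promoters and in 73 of 6020 promoters of protein-coding genes, 1.21%. In the 27 genes the match began 84 to 183 bases before the start codon (median 120) and lay on the strand of the gene in 19 and on the other strand in 8. With up to 1 mismatch allowed, all 33 subunit promoters and not that of RPN4 held a match, against 464 of 6020 promoters (7.71%). The first group of windows is shown for genes at both ends of the total RNA results below. PUP2 and PUP3 had the lowest relative change with CMK in their rings, PRE3 and PRE2 are catalytic, PRE4 changed least in the beta ring, and RPN2 changed least of the 34 in total RNA. Each is 41 bases of the gene's strand, 5′ to 3′, with PACE in capitals.
PUP2: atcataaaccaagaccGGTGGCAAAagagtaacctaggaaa
PUP3: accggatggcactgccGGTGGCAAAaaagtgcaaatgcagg
PRE3: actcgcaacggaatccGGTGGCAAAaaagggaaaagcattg
PRE2: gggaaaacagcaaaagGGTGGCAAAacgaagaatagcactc
PRE4: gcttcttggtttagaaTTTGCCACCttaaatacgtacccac
RPN2: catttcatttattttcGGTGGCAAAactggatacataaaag
In PRE4, TTTGCCACC is the same element read on the other strand. These windows lie at chrVII:999220-999260 on the minus strand (PUP2), chrV:349505-349545 minus (PUP3), chrX:435029-435069 plus (PRE3), chrXVI:732178-732218 plus (PRE2), chrVI:249953-249993 minus (PRE4) and chrIX:220795-220835 minus (RPN2).

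The 6 subunit genes without the exact letters were PRE5, PUP1, RPN8, RPN10, RPN13 and SEM1. The nearest match with 1 mismatch is shown in capitals for 3 of them that are named below, PUP1, RPN10 and SEM1.
PUP1: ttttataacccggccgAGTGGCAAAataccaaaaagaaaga
RPN10: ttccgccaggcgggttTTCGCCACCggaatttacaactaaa
SEM1: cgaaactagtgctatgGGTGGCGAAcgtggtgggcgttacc
In RPN10 the capitals are read on the other strand. The windows lie at chrXV:631885-631925 on the minus strand (PUP1), chrVIII:498962-499002 plus (RPN10) and chrIV:1202001-1202041 plus (SEM1). A letter match is a description of sequence, not a measured binding site. A site of Yap1, an oxidative-stress activator, searched as TTAGTAA, occurred in 4 of the 34 promoters and 473 of 6020 (7.86%), and the drug-response element TCCGCGGA in 0 of 34 and 12 of 6020. The genes lie on 13 chromosomes, none is overlapped by another annotated gene, and coding lengths run from 270 bases (SEM1) to 2982 (RPN1).

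In WT cells given DMSO and 4tU the subunit genes had similar RNA levels. Per kilobase of coding length, total RNA of WT cells with DMSO and 4tU ranged over the 33 subunit genes from 209 RPKM (RPN9, lid) to 613 (PRE1, beta ring), a 2.94-fold span, with a median of 416. RPN4 stood at 322 and 385 RPKM in the pair of libraries, within that span. In the library without 4tU it had 108 RPKM, below the lowest subunit gene there, RPN9 at 141. The catalytic genes were at 387 and 326 RPKM for PRE3 (caspase-like site), 240 and 252 for PUP1 (trypsin-like site) and 522 and 412 for PRE2 (chymotrypsin-like site). Together the 34 genes took 0.804% to 1.99% of S. cerevisiae reads in the 14 total RNA libraries with 4tU.

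Across total RNA libraries the subunit genes moved together, and RPN4 and SEM1 least so. Over the 15 libraries, a subunit gene's log2 CPM correlated with the mean of the other subunit genes at a median Pearson r of 0.951, and 30 of 33 genes were above 0.8. SEM1, a small lid subunit that also serves in an mRNA export complex, had r = 0.394, RPN1 and RPN2, the scaffolds of the base, 0.686 and 0.687, and RPN4 0.351. In the 19 nascent libraries the median was 0.906 and RPN4 had r = -0.14. The libraries share treatment groups and dose sets, so these values describe the set and carry no test.

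**Figure D1:**
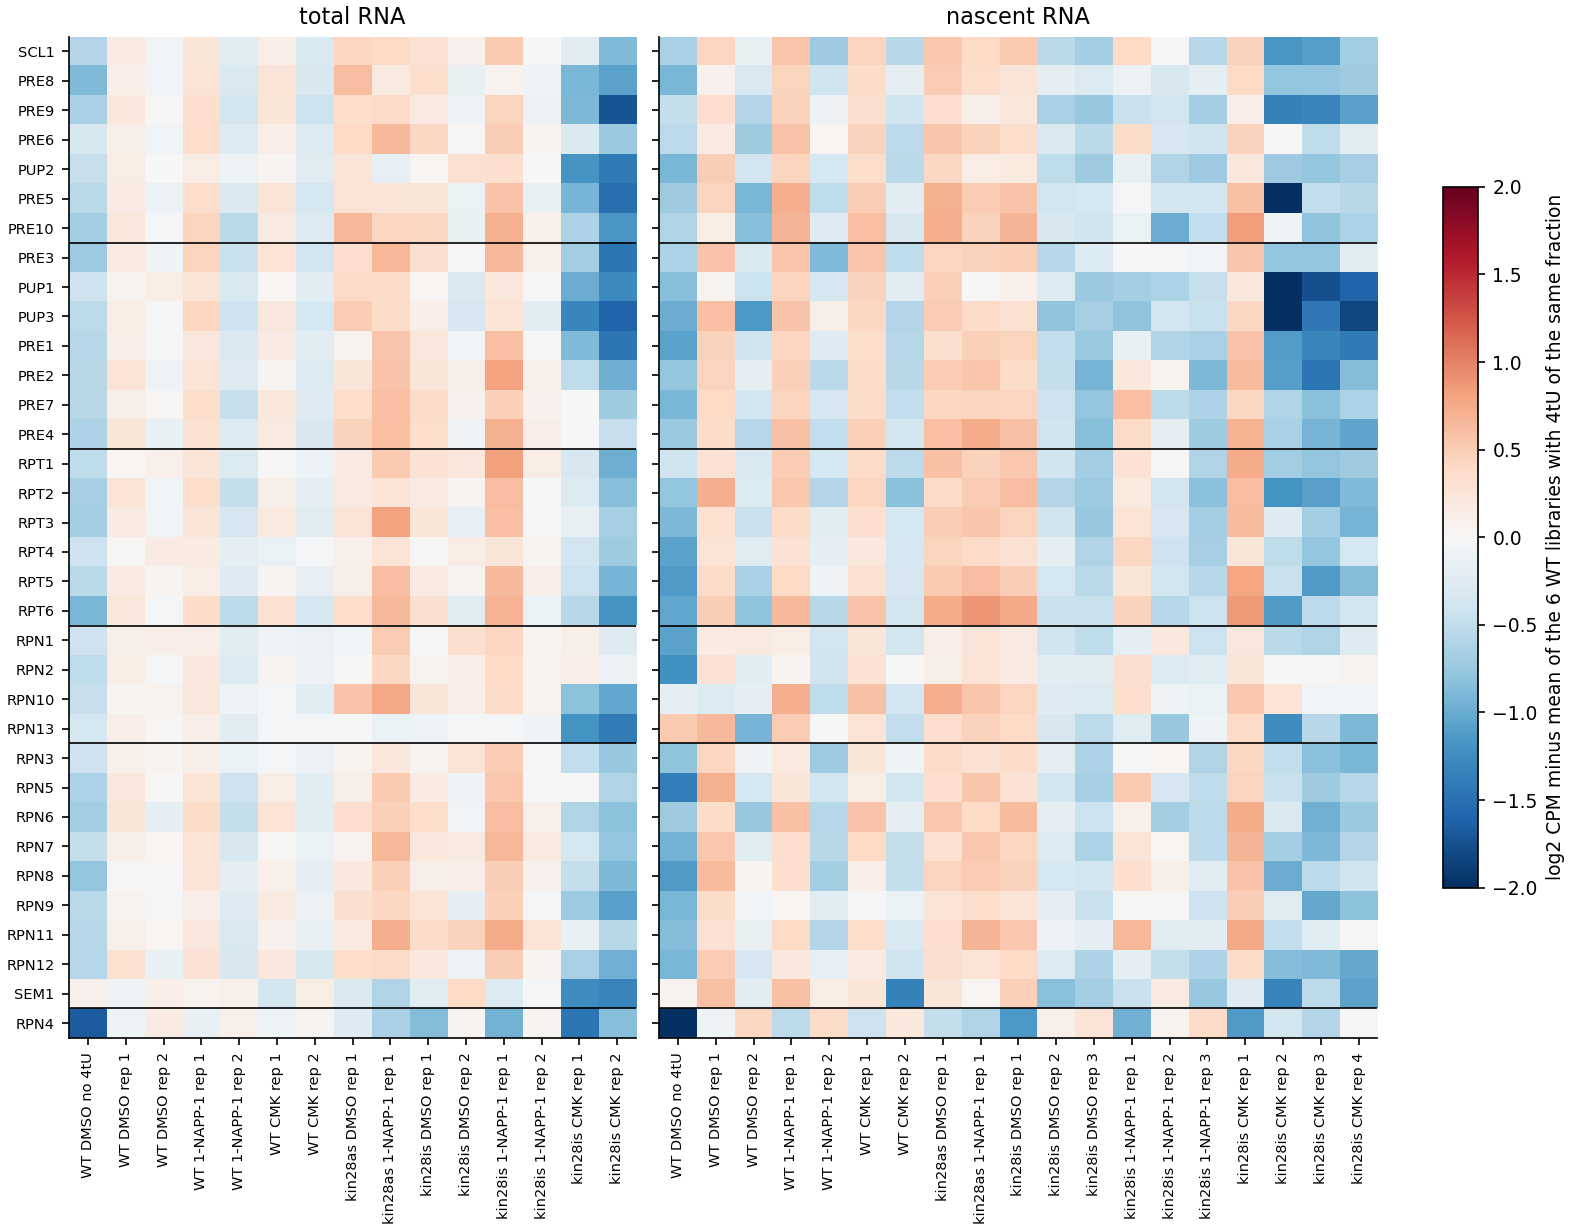
Log2 CPM of each of the 34 genes (rows, ordered by subcomplex with lines between them) in each total (left) and nascent (right) library, minus the gene's mean over the 6 WT libraries with 4tU of the same fraction, on a colour scale from -2 to 2. Most subunit rows are blue in the total kin28is CMK columns and in the columns without 4tU, and the RPN4 row at the bottom does not follow them in the nascent 2 µM columns.

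Adding CMK to kin28is cells lowered the share of proteasome mRNA in total RNA. Summed over the 33 subunit genes, total RNA of kin28is cells held 10498 CPM (2 µM) and 7733 CPM (5 µM) with CMK, against 15517 and 14290 with DMSO and 19569 and 13981 with 1-NAPP-1. Both CMK libraries lay below all 4 others. In WT cells the sums with CMK were 14580 and 11843 CPM, against 15096 and 13674 with DMSO. RPN4 itself had 198 and 304 CPM with CMK, 300 and 568 with DMSO and 283 and 569 with 1-NAPP-1 in kin28is, so that within each dose set CMK gave the lowest value while the groups overlapped across sets. In WT, RPN4 stood at 491 to 614 CPM in all 6 libraries with 4tU.

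**Figure D2:**
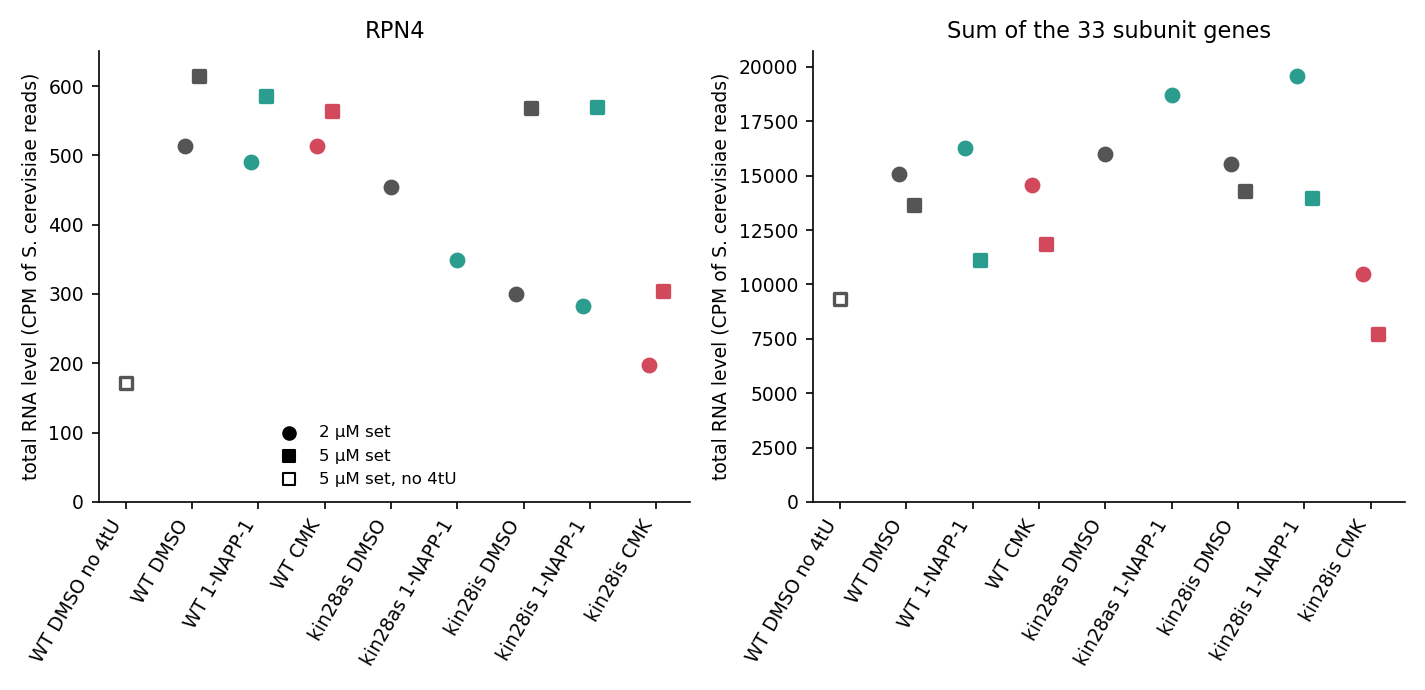
Total RNA level in CPM of RPN4 (left) and of the 33 subunit genes summed (right) in each library, by strain and treatment, with circles for the 2 µM set, filled squares for the 5 µM set and an open square for the culture without 4tU. The kin28is CMK libraries hold the lowest subunit sums among labelled cultures (10498 and 7733 CPM), and the culture without 4tU holds the lowest RPN4 level (172 CPM).

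Changes were tested on 2 scales with edgeR's quasi-likelihood F-test, each with the dose set as a term and calls at a Benjamini-Hochberg adjusted p under 0.05 over all S. cerevisiae features. "Per S. pombe" values use the S. pombe reads as the reference, and fewer S. cerevisiae cells per S. pombe cell and less RNA per cell cannot be told apart on it. "Relative" values compare a gene with the other S. cerevisiae genes of the same library. On the relative scale 31 of 34 genes fell with CMK against DMSO in kin28is total RNA, where 20.3% of all features were called lower, with a median log2 change of -1.16 (a 2.23-fold decrease) against 0.02 over all features. Per S. pombe, 10 of 34 fell, where 1.99% of all features were called lower, and the median was -0.97 against 0.17 over all features. On both scales all 34 estimates lay below the median of all features. In CPM, 28 of 34 genes had both CMK libraries below all 4 DMSO and 1-NAPP-1 libraries of kin28is, where 17.4% of all features did. With counts per S. pombe count, 0 of 34 did, where 0.326% of all features did. The 6 genes that overlapped in CPM were PRE4, RPT3, RPN1, RPN2, RPN5 and RPN4.

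The genes of the core had the lowest medians. All 7 alpha ring genes fell on the relative scale, with a median of -1.39, and 5 of 7 per S. pombe. PUP2 (YGR253C), an alpha subunit, had 185 and 157 CPM with CMK, 432 and 514 with DMSO and 526 and 417 with 1-NAPP-1. The groups did not overlap. Its log2 change was -1.78 ± 0.25 (SE, adjusted p = 0.00271) relative and -1.55 ± 0.35 (adjusted p = 0.00132) per S. pombe. PRE9, the alpha subunit that yeast can live without, fell by 1.64 ± 0.28 (adjusted p = 0.00392, relative). SCL1 and PRE6 changed least in the ring, at -1.02 and -1.03 relative.

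All 7 beta ring genes fell on the relative scale (median -1.28), and 3 of 7 per S. pombe, PUP3, PRE1 and PRE3. PUP3 (YER094C), a structural beta subunit, had 133 and 108 CPM with CMK against 360 and 261 with DMSO and 398 and 280 with 1-NAPP-1. Its relative change was -1.65 ± 0.23 (adjusted p = 0.00271). For the catalytic genes, PRE3 (YJL001W) had 137 and 81.1 CPM with CMK, 277 and 222 with DMSO and 347 and 238 with 1-NAPP-1, a relative change of -1.52 ± 0.26 (adjusted p = 0.00387). PUP1 (YOR157C) had 89.9 and 74.6 CPM with CMK, 184 and 146 with DMSO and 209 and 179 with 1-NAPP-1, a relative change of -1.28 ± 0.21 (adjusted p = 0.0036). PRE2 (YPR103W) had 264 and 191 CPM with CMK, 444 and 405 with DMSO and 654 and 401 with 1-NAPP-1, a relative change of -1.22 ± 0.23 (adjusted p = 0.0059). In each of these genes both CMK libraries were below the 4 others. Per S. pombe, PRE3 also fell (-1.32 ± 0.38, adjusted p = 0.0285), and PUP1 (-1.13 ± 0.41, adjusted p = 0.134) and PRE2 (-1.01 ± 0.34, adjusted p = 0.093) did not pass. PRE4 changed least in the ring (-0.64 ± 0.19, adjusted p = 0.0279, relative).

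In the cap, all 6 ATPase genes fell on the relative scale, from RPT6 (-1.20) to RPT3 (-0.73), and 0 of 6 passed per S. pombe, where their median was -0.82. Of the 4 other base genes, the ubiquitin receptor genes RPN13 (-1.52) and RPN10 (-1.40) fell, and RPN1 (-0.54 ± 0.32, adjusted p = 0.187) and RPN2 (-0.40 ± 0.26, adjusted p = 0.228) did not pass. RPN1 stood at 1400 and 1078 CPM with CMK, 1277 and 1611 with DMSO and 1735 and 1334 with 1-NAPP-1, and its groups overlapped. Of the 9 lid genes, 8 fell, led by SEM1 (YDR363W-A) at 65.7 and 63.0 CPM with CMK against 135 and 209 with DMSO (-1.67 ± 0.24, adjusted p = 0.00274, relative). RPN11, the deubiquitinase of the lid, fell by 1.07, and RPN5 (-0.64 ± 0.27, adjusted p = 0.0738) did not pass. RPN4 fell by 1.07 ± 0.29 (adjusted p = 0.0202) on the relative scale and did not pass per S. pombe (-0.84 ± 0.34, adjusted p = 0.171).

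**Figure D3:**
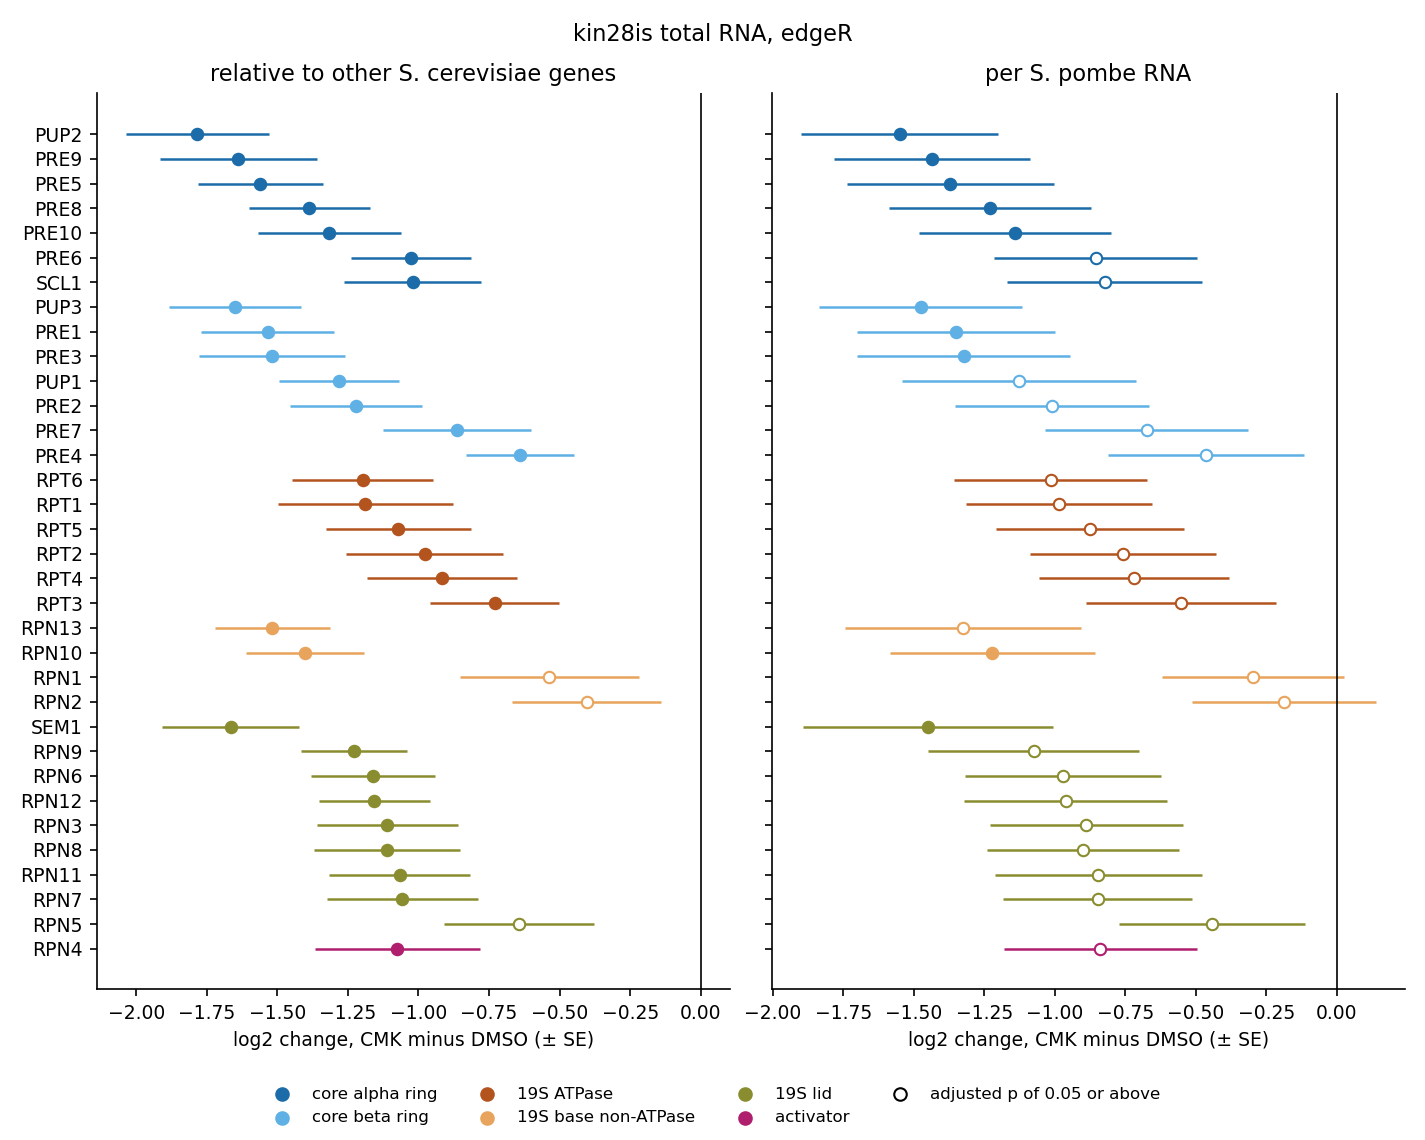
Log2 change with CMK against DMSO in kin28is total RNA for each of the 34 genes, with the standard error, relative to the other S. cerevisiae genes (left) and per S. pombe RNA (right), coloured by subcomplex. Filled points passed an adjusted p under 0.05, 31 on the left and 10 on the right, and RPN1, RPN2 and RPN5 are the open points on the left.

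Shorter genes fell more, among these genes and in general. Over the 34 genes, the relative change correlated with coding length at Spearman's rho = 0.637 (Pearson's r = 0.72 with log2 length), and over all 5107 tested genes with a coding length at rho = 0.293 (r = 0.223). These are correlations across genes of the same libraries, and genes are not independent replicates. The 6 subunit genes without exact PACE letters had a median relative change of -1.46 and a median coding length of 745.5 bases, and the 27 with them -1.11 and 921 bases, so the letters and the length vary together and their parts were not tested.

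Most of the genes also fell against the reversible inhibitor, a comparison that shares its CMK libraries with the one above. With CMK against 1-NAPP-1, 26 of 34 genes fell per S. pombe, where 3.94% of all features were called lower, with a median of -1.40 against -0.09. Relative to the other genes, 29 of 34 fell (12.1% of all features called lower), with a median of -1.25. The largest changes per S. pombe were PUP3 (-1.82 ± 0.36, adjusted p = 8.72e-05), PRE9 (-1.80), PUP2 (-1.80) and PRE1 (-1.79), and the smallest RPN2 (-0.57 ± 0.33, adjusted p = 0.487), RPN1 (-0.64), RPN5 (-0.90) and PRE7 (-0.96). PRE3 (-1.77 ± 0.38), PUP1 (-1.57 ± 0.42) and PRE2 (-1.54 ± 0.35) fell, and RPN4 had -1.06 ± 0.34 (adjusted p = 0.0505).

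The calls in total RNA rest on 2 libraries per group. The relative count against DMSO was 9 without CMK replicate 2 and 12 without DMSO replicate 2, and that against 1-NAPP-1 was 1 without 1-NAPP-1 replicate 1 and 0 without 1-NAPP-1 replicate 2 or CMK replicate 2. Without the dose term the counts per S. pombe were 0 and 0, and the relative counts 14 and 6. Per S. pombe, leaving out a kin28is CMK or 1-NAPP-1 library gave counts of 0 to 3 against DMSO and of 1 to 11 against 1-NAPP-1. The count against DMSO was 5 without WT DMSO replicate 1, 4 without WT DMSO replicate 2 and 24 without kin28is DMSO replicate 2. For RPN4, the relative call was lost without kin28is DMSO replicate 2 (-0.69, adjusted p = 0.205) or CMK replicate 2 (-1.04, adjusted p = 0.126). Within each dose set alone, the median relative log2 CPM ratio of the 34 genes to DMSO was -0.73 at 2 µM, with 32 of 34 below 0, and -0.97 at 5 µM, with 34 of 34 below 0, against 0.10 and 0.55 over all features. With S. pombe as the reference the medians were -1.04 at 2 µM and -0.56 at 5 µM.

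In total RNA no member passed edgeR's test on either scale with 1-NAPP-1 against DMSO in kin28is, with either inhibitor in WT, or between strains with DMSO. With 1-NAPP-1 against DMSO in kin28is the estimates per S. pombe ran from 0.00 (SEM1) to 0.53 (PRE2), and 0 of 34 had an unadjusted p under 0.05. In WT the estimates with CMK ran from -0.07 (PRE9) to 0.16 (RPN9), and with 1-NAPP-1 from -0.13 (RPT6) to 0.12 (SEM1), with 0 of 34 at an unadjusted p under 0.05 in both. On the relative scale all 34 WT estimates were below 0 with both inhibitors, at medians of -0.29 (smallest adjusted p = 0.70) and -0.23. The sets differed in plain CPM ratios to DMSO. With CMK, 20 of 34 were below 0 at 2 µM (44.5% of all features) and 33 of 34 at 5 µM (25.3%). With 1-NAPP-1, 6 of 34 were below 0 at 2 µM (57.2%) and 34 of 34 at 5 µM (25.9%). Between strains with DMSO, kin28is minus WT ran from -0.69 ± 0.34 (RPN4) to 0.10 (RPN11), with 1 of 34 at an unadjusted p under 0.05. DESeq2 also called 0 members in these 4 comparisons. The test of the difference itself, the CMK response of kin28is minus that of WT, gave a median of -0.98 over the 34 genes against -0.15 over all features, with all 34 below 0. It called 0 of 34 genes, where 0.440% of all features were called lower, and 17 of 34 had an unadjusted p under 0.05. The lowest was PUP2 (-1.50 ± 0.49, adjusted p = 0.244). DESeq2 called 5 of 34 lower in this difference. The shares of all features under the unadjusted cut and by DESeq2 are not given here.

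In the kin28as strain, with 1 library per group and no replicate check, the 1-NAPP-1 to DMSO log2 ratio of CPM in total RNA had a median of 0.17 over the 34 genes against 0.40 over all features. It ran from -0.43 (PRE8) to 0.59 (RPN7), and RPN4 stood at 454 CPM with DMSO and 349 with 1-NAPP-1. In nascent RNA the median was -0.01 against 0.12.

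In nascent RNA of the 5 µM set, CMK lowered every proteasome gene of kin28is per S. pombe RNA, as it lowered most of the transcriptome. The median subunit gene had 136, 116 and 68.9 nascent counts per 1000000 S. pombe counts with CMK, 391 and 488 with DMSO and 622 and 362 with 1-NAPP-1. WT libraries stood at 1213 (DMSO), 1365 (1-NAPP-1) and 1315 (CMK). All 34 genes were called lower with CMK against DMSO, where 70.5% of all features were called lower, with a median log2 change of -2.02 against -1.66. The reads of S. cerevisiae per S. pombe read, over all genes, were 0.277 to 0.513 with CMK and 1.21 and 1.72 with DMSO. Against 1-NAPP-1, with the same CMK libraries, all 34 were called lower (73.8% of all features), with a median of -2.43 against -1.82. There PUP1 (-3.43), PUP3 (-3.41), PRE2 (-2.88) and SCL1 (-2.75) fell most, PRE10 (-1.62), RPN2 (-1.67), RPN10 (-1.76) and PRE6 (-1.79) least, and PRE3 fell by 2.56 and RPN4 by 2.51 ± 0.48 (adjusted p = 6.94e-06).

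RPN4 fell by 2.30 ± 0.47 (adjusted p = 5.38e-05), from 1724 and 2727 counts per 1000000 S. pombe counts with DMSO to 527, 449 and 368 with CMK, without overlap. Among the catalytic genes, PUP1 fell by 3.28 ± 0.61 (adjusted p = 8.08e-06), PRE2 by 2.20 ± 0.56 (adjusted p = 0.000702) and PRE3 by 2.01 ± 0.58 (adjusted p = 0.00221). PUP3 (-2.90), PRE1 (-2.38) and PRE5 (-2.34) followed PUP1, and RPN10 (-1.40), RPN2 (-1.52), PRE6 (-1.53) and RPT3 (-1.69) changed least. By subcomplex the medians were -2.16 for the alpha ring, -2.20 for the beta ring, -1.97 for the ATPases, -1.65 for the other base genes and -2.02 for the lid.

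On the relative scale 2 of 34 nascent levels fell with CMK against DMSO, where 2.09% of all features were called lower, both of them beta ring genes. PUP1 had 30.9, 65.6 and 73.8 CPM with CMK against 184 and 134 with DMSO and 144 and 162 with 1-NAPP-1, a relative change of -1.50 ± 0.32 (adjusted p = 0.0255). PUP3 had 58.8, 123 and 94.0 CPM with CMK against 190 and 209 with DMSO and 253 and 245 with 1-NAPP-1 (-1.17 ± 0.28, adjusted p = 0.0349). In both genes the 3 CMK libraries lay below the 4 others. The median of the 34 genes was -0.36, with 31 below 0, and PRE6 (0.11), RPN2 (0.15) and RPN10 (0.23) lay above. RPN4 had 1027, 882 and 1328 CPM with CMK against 1428 and 1582 with DMSO (-0.55 ± 0.30, adjusted p = 0.302). PRE3 (-0.21) and PRE2 (-0.50) did not pass. Against 1-NAPP-1 the same pair fell (1.13% of all features called lower), PUP3 by 1.50 (adjusted p = 0.0245) and PUP1 by 1.46 (adjusted p = 0.0447).

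**Figure D4:**
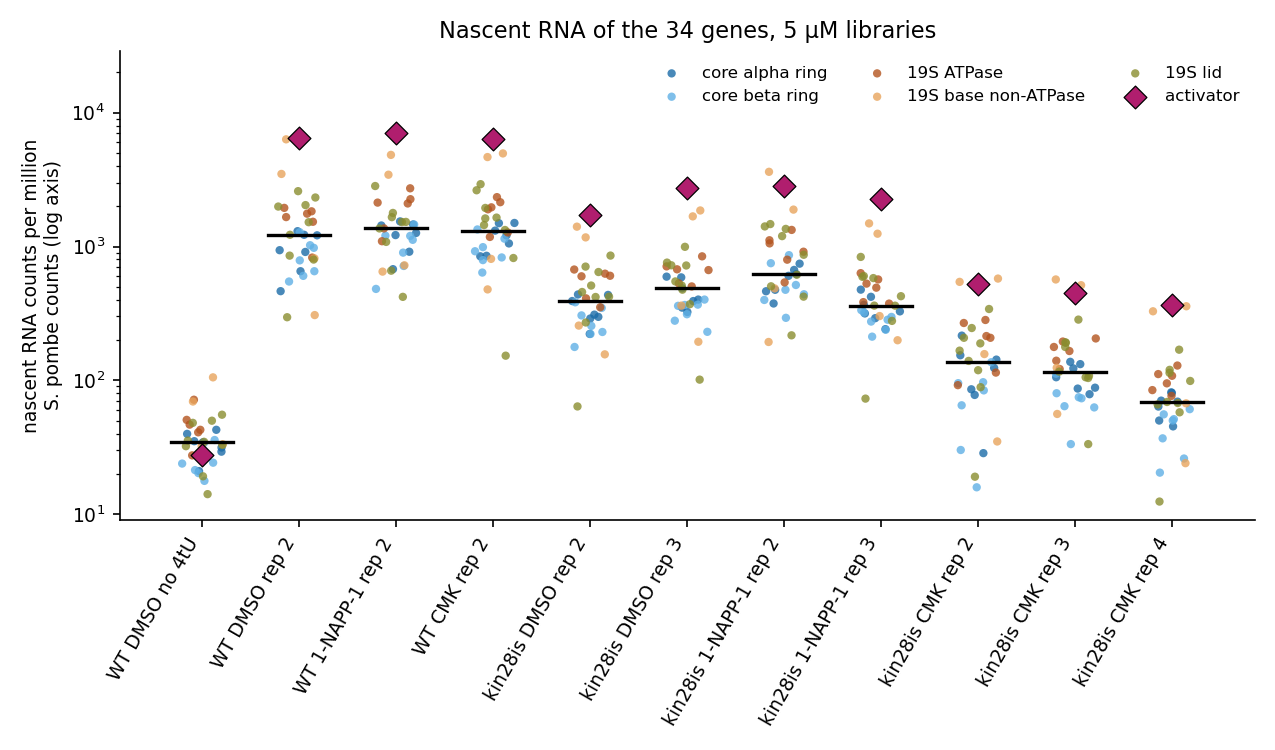
Nascent RNA of the 34 genes in each 5 µM library, as counts per 1000000 S. pombe counts on a log axis, with a black bar at the median subunit gene and a diamond for RPN4. The 3 kin28is CMK libraries (medians 136, 116 and 68.9) lie between the other labelled libraries and the pull-down without 4tU (34.4), and RPN4 is above the bar in every library but that one.

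The pull-down from the culture without 4tU measures how much RNA is recovered without a label. Its level for a member, per S. pombe count, was a median of 8.32% and 6.78% of the level in the kin28is DMSO libraries and 25.0%, 28.0% and 48.2% of that in the CMK libraries. Some members with CMK were at or near the unlabelled level in 1 or more libraries. The unlabelled level was 95.3%, 59.4% and 138% of the CMK levels for RPN13, 112%, 53.1% and 86.8% for PUP1, 74.1%, 42.3% and 114% for SEM1 and 79.2%, 38.0% and 91.7% for PUP3. PUP1 and PUP3, the pair called on the relative scale, are thus among the genes whose CMK levels lay near the unlabelled one. For RPN4 it was 5.22%, 6.13% and 7.48%. The lowest count of any member in any library was 10, for PUP1 in CMK replicate 2, the library with 359 CPM of URA3. Without that library 34 of 34 genes were called lower per S. pombe against each control, and 2 of 34 on the relative scale. Without DMSO replicate 3 the count per S. pombe against DMSO was 8. The relative calls were 0 without either DMSO library or without CMK replicate 3, and 1 without CMK replicate 4. Those against 1-NAPP-1 were 0 without either 1-NAPP-1 library or without CMK replicate 3 or 4, and 1 without either DMSO library. The part of unlabelled RNA in the fold changes was not tested.

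The 2 µM nascent libraries, 1 per group, gave other values. At 2 µM the median member had a CMK to DMSO log2 ratio of -1.11 per S. pombe in kin28is, against -1.56 for replicate 2 and -1.95 for replicate 3 at 5 µM, and of 0.10 in CPM, with 26 of 34 above 0. Against 1-NAPP-1 the 2 µM ratio per S. pombe was 1.98, opposite to the -2.45 and -1.62 at 5 µM, where S. cerevisiae reads per S. pombe read over all genes stood at 13.9 with CMK and 4.71 with 1-NAPP-1 in that set. With all 16 nascent libraries in the fit, 0 members were called in either comparison.

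In nascent RNA no member passed the test with 1-NAPP-1 against DMSO in kin28is, or with CMK or 1-NAPP-1 in WT, and 0 of 34 had an unadjusted p under 0.05 in each per S. pombe. Between strains with DMSO, kin28is stood lower, at a median of -1.52 against -1.27 over all features, with 0 of 34 called where 0.422% of all features were called lower. The RPN4 difference was -1.59 ± 0.61 (adjusted p = 0.173). For the difference in CMK response between kin28is and WT the median was -2.02 against -1.87, with 0 of 34 called (0.269% of all features called lower). In both comparisons more members lay under an unadjusted p of 0.05 or were called by DESeq2. The shares of all features above are of edgeR's adjusted calls and do not apply to those members. WT had 1 nascent library per treatment at 5 µM, so these fits take the spread of kin28is for WT.

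In the culture that received no 4tU, RPN4 and the subunit genes together took a smaller share of total RNA reads than in every labelled WT culture. RPN4 stood at 172 CPM without 4tU and at 514, 614, 491, 586, 514 and 564 CPM in the WT libraries with DMSO, 1-NAPP-1 and CMK at 2 and 5 µM. The sum of the 33 subunit genes was 9310 CPM without 4tU and 11109 to 16268 CPM with it. In 33 of 34 genes all 6 labelled WT libraries lay above the unlabelled one, where 11.1% of all features did. The exception was SEM1, at 167 CPM without 4tU and 123 to 175 CPM with it. PRE3 had 134 CPM without 4tU and 162 to 302 with it, PUP1 134 and 146 to 214, and PRE2 255 and 311 to 451.

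**Figure D5:**
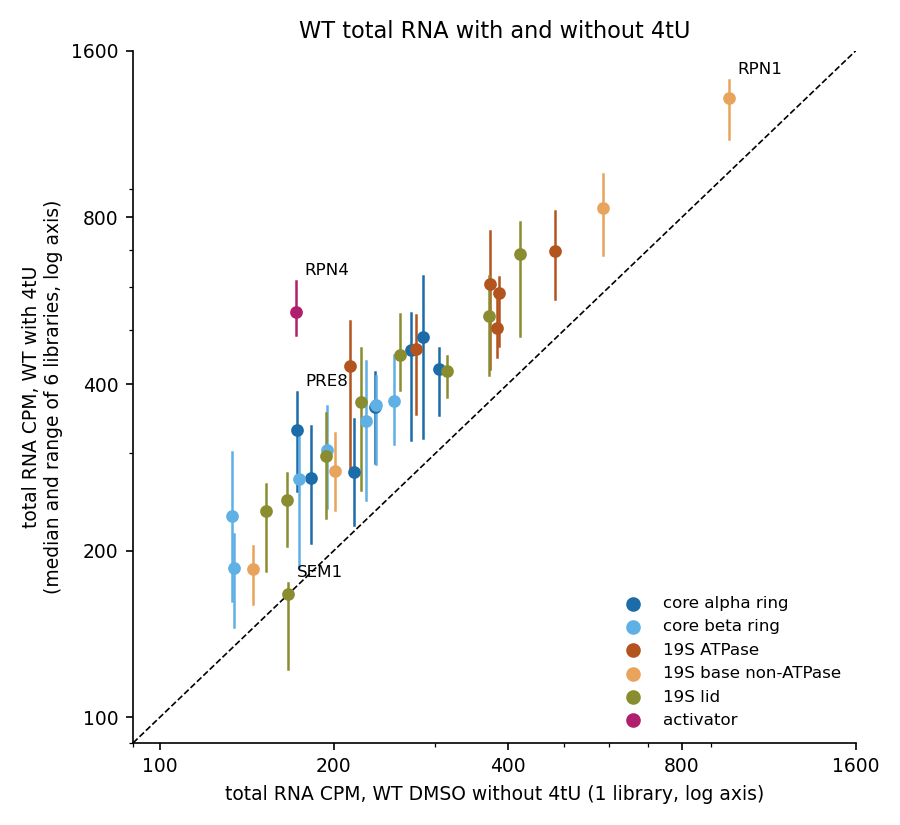
Total RNA CPM of each of the 34 genes in the WT DMSO culture without 4tU (horizontal, 1 library, log axis) against the median and range of the 6 WT libraries with 4tU (vertical, log axis), coloured by subcomplex, with a dashed line of equality. RPN4 is farthest above the line, at 172 against a median of 539 CPM, and SEM1 lies on it, at 167 against 167.

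In the fit of WT DMSO with against without 4tU, RPN4 rose on the relative scale, by 2.43 ± 0.41 on the log2 scale (a 5.40-fold increase, adjusted p = 0.0127), and was the 1 member called, where 1.89% of all features were called higher. The next were PRE8 (1.22 ± 0.28, adjusted p = 0.0638), RPT6 (1.18, adjusted p = 0.14) and RPN8 (1.14, adjusted p = 0.158), and the lowest SEM1 (0.54 ± 0.30, adjusted p = 0.248), PRE6 (0.62), PRE5 (0.78) and PUP3 (0.83). All 34 estimates were above the median of all features, with a median of 0.92 (a 1.89-fold increase). Of the catalytic genes, PRE3 had 0.99, PUP1 0.89 and PRE2 0.91, none of which passed. Relative values exceed the plain CPM ratios. The CPM of the median feature was lower with 4tU, by 0.54 and 0.58 on the log2 scale in the 2 WT DMSO libraries. The fit also holds a dose term, and the parts of the excess were not separated. By plain CPM the RPN4 log2 ratio was 1.58 and 1.83, and the median member's 0.70 and 0.54.

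Per S. pombe the direction differed between the sets for most members, and not for RPN4. The log2 ratio of the labelled to the unlabelled library was above 0 in 34 of 34 genes for WT DMSO replicate 1 (median 1.46) and below 0 in 30 of 34 for replicate 2 (median -0.20), with RPN4 at 2.34 and 1.09. The fit per S. pombe gave 0 of 34 members (0.516% of all features called higher), with 1 of 34 at an unadjusted p under 0.05. RPN4 had 1.55 ± 0.46 (adjusted p = 0.0694), the median member 0.02 and the median feature -0.88. The group without 4tU is 1 library, assumed to vary like the others. The relative RPN4 call was lost without WT DMSO replicate 2 (2.47, adjusted p = 0.0616) and without the dose term (2.27, adjusted p = 0.0769), and 5 members were called without WT DMSO replicate 1. DESeq2 called more members on the relative scale, and the share of all features that it called is not given here. Anything else in which that single culture differed cannot be told apart from the lack of 4tU.

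Within the pull-down, RPN4 was also the member with the widest distance between labelled and unlabelled RNA. The WT DMSO library of the 5 µM set was above the pull-down without 4tU by a log2 ratio of 7.86 for RPN4 per S. pombe, from 27.5 to 6460 counts per 1000000 S. pombe counts. The median member was above by 5.15 and RPN13, the lowest, by 3.22. In CPM, RPN4 had 191 without 4tU and 1774 with it.

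RPN4 was among the genes richer in nascent than in total RNA. Over the 3 WT treatments, nascent minus total RNA on the relative scale was 1.25 ± 0.29 for RPN4 (adjusted p = 0.00364), 0.76 ± 0.20 for RPN9 (adjusted p = 0.00808) and 0.66 ± 0.23 for RPN3 (adjusted p = 0.0349), both lid genes. These were the 3 of 34 called higher, where 20.0% of all features were called higher and 17.2% lower. The other members ran from SEM1 (-0.71 ± 0.28, adjusted p = 0.0582), RPT2 (-0.21), PRE9 (-0.21) and RPN13 (-0.17) up to RPT3 (0.50). PRE3 (-0.02), PRE2 (0.08) and PUP1 (0.27) did not pass. With the replicate number as a block 8 members were called higher, and within the 2 µM or the 5 µM set alone 0. The nascent RPN4 level was 0.998 to 2.30 times the median subunit gene's CPM in the 8 libraries at 2 µM and 3.86 to 6.29 times in the 10 labelled libraries at 5 µM, without overlap, whereas in total RNA the ratio was 0.532 to 2.04 over 14 libraries.

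Some genes that assist the proteasome fell, at shares nearer that of all features. The list of assembly factors and regulators held 14 genes, of which 13 were tested. In kin28is total RNA with CMK against DMSO, 4 of 13 fell on the relative scale, where 20.3% of all features were called lower, with a median of -0.21 over the list. UMP1, the maturation factor of the core, fell by 1.54 ± 0.19 (adjusted p = 0.00211), UBP6, a deubiquitinase of the cap, by 0.75 (adjusted p = 0.0288) and IRC25, a chaperone of alpha ring assembly, by 0.75 (adjusted p = 0.0154). Of 14 tested genes that attach or deliver ubiquitin, 5 fell, with a median of -0.50. RAD23 and DSK2, shuttles that carry ubiquitylated proteins to the cap, fell by 1.51 (adjusted p = 0.0028) and 1.04 (adjusted p = 0.0147), and UFD1, a partner of Cdc48, by 0.72 (adjusted p = 0.00958). Of 6 regulators of RPN4, YAP1 (-1.08, adjusted p = 0.00444) and MUB1 (-0.71, adjusted p = 0.0131) fell and UBR2 (0.68 ± 0.20, adjusted p = 0.0258) rose, the last 2 being partners in the ubiquitin ligase that marks Rpn4 for degradation. Per S. pombe 0 of 13, 1 of 14 and 0 of 6 fell in the 3 lists.

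With against without 4tU on the relative scale, 0 of 13, 0 of 14 and 0 of 6 of these genes were called, with medians of 0.36, 0.84 and 0.28. The genes of smallest p were UBP6 (1.12, adjusted p = 0.127), UMP1 (0.69, adjusted p = 0.203) and ECM29 (0.59, adjusted p = 0.217) among assembly factors. Among ubiquitin genes they were UBI4, the polyubiquitin gene (1.59 ± 0.36, adjusted p = 0.0533), DDI1 (0.84, adjusted p = 0.0715) and UFD1 (0.73, adjusted p = 0.155), and among the regulators YAP1 (0.87, adjusted p = 0.155), PDR3 (-0.40, adjusted p = 0.249) and PDR1 (0.33, adjusted p = 0.276).

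The PACE letters also occurred before 46 genes outside the complex, 8 of which share the match with a divergent subunit gene. Of the 44 tested, 17 fell and 5 rose with CMK against DMSO in kin28is total RNA on the relative scale, where 20.3% of all features were called lower and 18.3% higher, with a median of -0.35 against -1.16 for the proteasome genes. TMC1 (-1.34, adjusted p = 0.00444) and CUZ1 (-1.12, adjusted p = 0.00274), zinc-finger proteins of the stress response to metals, are examples among the 17. They were named after their values were seen, and their rank among the 44 is not given here. TMC1 and CUZ1 do not stand for the list, in which 5 genes with the same letters rose. With against without 4tU 1 of 44 was called, TMC1 (1.59, adjusted p = 0.0294), where 1.89% of all features were called higher, and the median was 0.54.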

How the data were processed

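RNA was measured in 19 nascent and 15 total RNA libraries. The values are the deposited read counts per gene, whole numbers with no normalization by the authors. Per the submitters' processing notes, CASAVA 1.8.2, STAR 2.3.0 and HTSeq 0.6.0 were used with the sacCer3 build. The sources used here do not state how reads were assigned to species or strand, nor how replicates were cultured. The count table holds 10533 features, 5143 of S. pombe and 5390 others, taken as S. cerevisiae. Groups were taken from the labels.

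Counts were tested with edgeR 4.0.16 in R 4.3.3 (quasi-likelihood F-test, features passing filterByExpr with a minimum count of 10, Benjamini-Hochberg adjustment over all S. cerevisiae features). The scale per S. pombe took library totals and TMM factors from the S. pombe genes alone, and the relative scale took both from the S. cerevisiae genes. Nascent RNA was fitted on the 10 WT and kin28is libraries at 5 µM with 4tU (4 residual degrees of freedom), total RNA on 12 libraries with the dose set as a term (5), the 4tU comparison on 13 (5), and nascent against total RNA on 24 (12). The tests share the spread over features, so their p-values do not rest on these residual degrees of freedom alone. Per S. pombe, the members' p-values were close to those of a normal distribution. A gene's own spread between replicates thus hardly entered them. CPM are counts per 1000000 S. cerevisiae reads, and log2 ratios of single libraries add 1 count. DESeq2 1.42.0, no filter, both scales, the replicate block and leaving out each library were alternatives. Repeats on the relative scale were added after seeing the data.

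In total RNA the replicate number is the dose set, so the labels make it a set and the fit has it as a block. Same-number libraries deviated together at r above 0.1 in 20 of 30 pairs (lowest -0.22). With 2 libraries per group, the deviations from the group mean mirror each other. Each correlation thus occurs once per replicate number, and the 30 pairs are not 30 separate values. Replicate libraries were not duplicates, with a smallest chi-square per degree of freedom of 6.02 over 21 pairs.

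On simulated counts, changes of 1 and 2 on the log2 scale were recovered in 34% and 100% of 100 genes for total RNA, CMK against DMSO (5220 genes), 40% and 98% on the relative scale (5224), 50% and 100% for nascent RNA (5199), and 22% and 91% for the 4tU comparison (5228). The simulated counts had the same spread for every gene, no difference between dose sets and few changed genes. In the nascent data 70.5% of features were called lower and member standard errors ran from 0.47 to 0.63. The recovered shares are therefore not the power of the real tests. Intervals of single libraries are not given, and members had at least 10 counts in every library.

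The members, lists and comparisons were chosen with earlier results of these data known. Named are RPN4, PRE3, PUP1 and PRE2, the 4 lowest and 4 highest members of each comparison with a called member, the lowest and highest elsewhere, and the 3 genes of smallest p in each pathway list. Assembly gene PBA1 was not analysed here.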

Additional observations from a re-analysis of the deposited data

Results flagged for a closer look

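Among the nascent kin28is CMK libraries, replicate 1, the 2 µM library, lay far from the 3 others at 5 µM. PRE2 had 623 CPM there, the 34 genes summed to 22954 CPM, and the median subunit gene had 8443 counts per 1000000 S. pombe counts. These were 3 of 6 value series examined, and chance alone sets about 1 group in 20 apart in this way. Dose and library set cannot be told apart.

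For PUP1 and the median member, the nascent CMK to DMSO log2 ratios per S. pombe pointed down in every numbered pair of kin28is and up in both pairs of WT, where 16 and 11 of the 34 members were below 0. For PUP1 they were -1.10, -3.67 and -2.74 in kin28is and 0.43 and 0.38 in WT. For the median member they were -1.11, -1.56 and -1.95 in kin28is and 0.016 and 0.11 in WT. The difference across all pairs was not tested. At 5 µM alone, where WT had 1 library per treatment, the difference for PUP1 was -3.68 ± 1.12, and no member passed edgeR's test.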

How the results depend on the processing

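Members called lower with CMK in kin28is nascent RNA, 34 against each control per S. pombe, were 2 and 2 with S. cerevisiae scaling and 0 and 0 with all 16 nascent libraries, with or without the replicate block. Leaving out 1 library gave 8 to 34 (against DMSO) and 25 to 34 (against 1-NAPP-1), and 0 to 2 in each on the relative scale. With S. cerevisiae scaling the sign turned against DMSO for PRE6 (0.11), RPN2 (0.15) and RPN10 (0.23) and against 1-NAPP-1 for PRE6 (0.062), RPN10 (0.071), RPN2 (0.19) and PRE10 (0.12). With all 16 libraries and no replicate term it turned against 1-NAPP-1 for PRE3 (0.98), PUP1 (1.24), PRE2 (1.00), PUP3 (1.43), SCL1 (0.70), PRE6 (0.81), RPN10 (0.84), RPN2 (0.62) and PRE10 (1.64). In total RNA, the 10 members lower against DMSO became 31 with S. cerevisiae scaling, 24 with DESeq2, 0 with no replicate block and 0 to 24 with 1 library left out. The 26 against 1-NAPP-1 became 0 with no replicate block and 1 to 32 with 1 library left out. On the relative scale, 31 against DMSO became 14 with no replicate block and 9 to 32, and 29 against 1-NAPP-1 became 6 and 0 to 32. The difference in CMK response, 0 called, gave 15 (nascent, with 0 to 2 on leaving out a library) and 5 (total, with 0 to 7) by DESeq2. The nascent strain difference with DMSO, 0 called, gave 16 by DESeq2 and 0 to 12. For 4tU, 0 members higher per S. pombe became 1 with S. cerevisiae scaling and 1 by DESeq2, and 1 on the relative scale became 0 with no replicate block, 30 by DESeq2 and 0 to 5. Nascent against total RNA in WT, 3 higher and 0 lower, gave 8 and 1 with the replicate block, 1 lower by DESeq2, and 0 higher and 0 to 1 lower within a single set. The causes were not tested. DESeq2 counts are given without the share of all features that it called, so they are not read as particular to the members. Over the named genes, 636 settings kept direction and side of the threshold, 167 lost the call and 16 turned the sign.

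With 2 libraries per group in total RNA and 1 without 4tU, calls rest on single libraries, and dose and library set cannot be told apart. For RPN13, PUP1, SEM1 and PUP3, among others, nascent levels with CMK lay at or near that of the pull-down without 4tU in some libraries. That pull-down is a single library of WT with DMSO, and the part of unlabelled RNA was not tested.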
